A study of Homo sapiens with 18 samples.

Results

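The HOX cluster genes were examined in SKOV-3, an established line of human ovarian carcinoma. Members were all probe sets whose gene symbol is HOXA, HOXB, HOXC or HOXD followed only by a number, with antisense transcripts left out. The rule used no measured value and gave 23 members among 21448 tested probe sets, each with 1 probe set. Of the genes of that name in the RefSeq gene table, 1 of 11 in the HOXA cluster on chromosome 7 was measured under its symbol, 8 of 10 in the HOXB cluster on chromosome 17, 6 of 9 in the HOXC cluster on chromosome 12 and 8 of 9 in the HOXD cluster on chromosome 2. The remaining 16 genes were not analysed here, and HOXA2 alone stands for the HOXA cluster.

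RNA was hybridised to Clariom S arrays, 1 array per sample, and the values are the deposited log2 signals. SKOV-3-AA cells had been transfected with PEA-15AA, a PEA-15 mutant with both regulatory serines replaced by alanine, which cannot be phosphorylated there. SKOV-3-DD cells carried PEA-15DD, the phosphomimetic mutant with aspartic acid at these positions, and SKOV-3-EV cells carried the empty vector. Transfection was transient, with liposomes and plasmids of the pcDNA3 type, in 1 established line that keeps its own PEA-15. Cells of each transfection were exposed to 15 µM cisplatin for 24 h or left without the drug, and treatment began 24 h after transfection. The transfections are also called AA, DD and EV. Each of the 6 groups held 3 arrays, so that 9 arrays of cisplatin-treated and 9 of untreated cells were compared. No source used here says that the replicates came from separate cultures, and p-values then measure only the spread among these arrays.

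HOX genes encode transcription factors with a homeodomain, the DNA-binding fold that gives the family its name. In vertebrates they lie in clusters in which all genes run in one direction, and the order of the genes along the chromosome matches the order of their domains along the body axis of the embryo: genes with low numbers act in the hindbrain and neck, genes with high numbers in the trunk, limbs and tail. Genes with the same number in different clusters are paralogues. HOX proteins bind DNA together with TALE cofactors of the PBX and MEIS families, retinoic acid activates the low-numbered genes in embryos, and Polycomb and trithorax complexes keep the clusters silent or active. In the female reproductive tract HOX genes pattern the oviduct, uterus and vagina, and epithelial ovarian carcinomas express HOX genes that the normal ovarian surface lacks.

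The promoters of 3 members are shown as examples of the directions found in the arrays. HOXD13 had a higher signal in cisplatin-treated cells, while HOXA2 and HOXD8 had lower ones. HOXA2 was not above background, as defined below, and the fall of HOXD8 did not pass its test with other scalings of the arrays. Each sequence runs 5′ to 3′ on the strand of the gene, from 250 bases before to 50 bases after the annotated start, in RefSeq's GRCh38.p14. Capitals mark matches, on either strand, to the TATA box with the letters TATAAA, the box named CCAAT, the GC box with the letters GGGCGG or the E-box with the letters CACGTG. The HOXD13 promoter lies on the plus strand at chr2:176092471-176092770, the HOXA2 promoter on the minus strand at chr7:27102634-27102933 and the HOXD8 promoter on the plus strand at chr2:176129455-176129754.
HOXD13: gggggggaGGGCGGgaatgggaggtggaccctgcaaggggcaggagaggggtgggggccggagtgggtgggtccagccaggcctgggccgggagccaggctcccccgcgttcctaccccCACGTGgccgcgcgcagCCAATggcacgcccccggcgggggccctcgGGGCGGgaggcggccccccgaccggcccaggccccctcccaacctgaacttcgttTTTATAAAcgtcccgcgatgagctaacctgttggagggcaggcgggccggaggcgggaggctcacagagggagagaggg
HOXA2: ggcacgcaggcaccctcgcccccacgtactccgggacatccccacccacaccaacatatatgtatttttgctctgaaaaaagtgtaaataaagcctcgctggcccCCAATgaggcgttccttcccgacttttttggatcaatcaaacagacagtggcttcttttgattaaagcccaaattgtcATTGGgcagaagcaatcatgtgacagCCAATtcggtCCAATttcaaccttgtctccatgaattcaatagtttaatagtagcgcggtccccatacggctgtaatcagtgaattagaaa
HOXD8: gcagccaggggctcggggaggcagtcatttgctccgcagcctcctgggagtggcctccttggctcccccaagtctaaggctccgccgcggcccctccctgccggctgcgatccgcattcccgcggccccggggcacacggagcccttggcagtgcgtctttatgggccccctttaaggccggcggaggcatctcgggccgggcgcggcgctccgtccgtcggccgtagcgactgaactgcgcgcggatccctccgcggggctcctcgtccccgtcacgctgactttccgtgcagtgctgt

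HOXD13 holds 2 overlapping TATA box matches, 1 on each strand, that begin 29 and 27 bases before the start and a CCAAT box 114 bases before it, besides GC boxes 242 and 84 bases and an E-box 131 bases before it. HOXA2 holds 4 CCAAT boxes and no other match, at 145, 67, 41 and 31 bases before the start. HOXD8 holds none of these motifs, and its window has a GC content of 71.7% and 34 CpG dinucleotides. Sequences were found for 9 of the 23 members, with a median of 23 CpG dinucleotides, against 14 over 35093 human promoters of the same length. A CCAAT box was found in 7 of the 9 and in 34.6% of all promoters, an E-box in 4 of the 9 and in 7.26%, a GC box in 4 of the 9 and in 44.9%, and a TATA box in 1 of the 9 and in 11.5%. A cyclic AMP response element (TGACGTCA), found in 1.85% of all promoters, and an AP-1 site (TGANTCA), found in 7.71%, were in 0 of the 9 windows. The 9 windows were those of HOXA2, HOXB1, HOXD3, HOXD4, HOXD8, HOXD10, HOXD11, HOXD12 and HOXD13. Most thus came from the HOXD cluster and none from HOXC, and only HOXD8 and HOXD13 among them were above background. The E-boxes were in HOXD3, HOXD10, HOXD11 and HOXD13. These shares hold for the 9 windows and not for HOX promoters in general, and the matches describe letters only. HOXB2, HOXB8, HOXB9, HOXC9 and HOXD9 had no entry in the promoter table used here.

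Signals were read against the negative control features of the array, 612 in number. A member counted as above background where its mean over the cisplatin-treated or the untreated arrays exceeded the 95th percentile of these features, 7.03 in cisplatin-treated and 6.49 in untreated cells. This held for 10 of the 23 members, namely HOXB2, HOXB5, HOXB6, HOXB7, HOXB8, HOXB9, HOXB13, HOXC9, HOXD8 and HOXD13. HOXB8 passed in untreated cells only. The medians of the negative controls lay between 3.70 and 3.92 in cisplatin-treated and between 3.57 and 3.69 in untreated arrays, so background itself stood higher after cisplatin, while the median of all tested probe sets was 6.33 to 6.44 per array in cisplatin-treated and 6.53 to 6.61 in untreated cells. In these cells 7 of 8 measured HOXB genes were above background, against 1 of 6 HOXC, 2 of 8 HOXD and 0 of 1 HOXA genes.

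The array labels were checked against other genes. Of the epithelial markers 6 of 7 measured were above background, MUC16 being the exception. Of these 7 markers 3 rose after cisplatin (KRT7, KRT8 and MUC16), 2 fell (KRT19 and PAX8) and 2 did not pass, with a median change of -0.13. Of 5 fibroblast markers COL1A1 and COL1A2 were above background, as was 1 of 4 leukocyte markers, PTPRC, with 9.78 in cisplatin-treated and 12.10 in untreated cells, while CD3E, CD14, LYZ and all 3 endothelial markers were not. On the log2 scale the summed leukocyte markers ranged from 9.67 to 10.18 in cisplatin-treated and from 11.74 to 12.36 in untreated arrays, and the fibroblast markers from 11.20 to 11.87 in cisplatin-treated and from 12.28 to 13.05 in untreated arrays. Within these lists PTPRC and COL1A2 fell by 2.33 and 1.10, while CD3E, CD14, COL1A1 and DCN rose by 0.48, 0.49, 0.29 and 0.63. The part of these markers in the HOX values was not tested. The PEA15 probe set, a check of the transfection, had 9.96, 9.80 and 10.01 in untreated SKOV-3-AA, 9.59, 10.48 and 12.21 in untreated SKOV-3-DD, and 10.31, 10.06 and 10.39 in untreated SKOV-3-EV cells. In cisplatin-treated cells it had 9.99, 10.22 and 10.42 in AA, 10.53, 10.73 and 11.63 in DD and 10.95, 11.07 and 11.51 in EV cells. The PEA15 signal was not higher in the cells labelled SKOV-3-AA than in SKOV-3-EV cells. Where its probes lie relative to the transfected sequence is not known here. The study itself checked the efficiency of transfection by Western blot, at the level of protein.

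Cisplatin was compared with no drug over all transfections, to see which HOX genes moved and whether clusters moved as blocks. Changes are log2 fold changes from limma, cisplatin minus untreated, and a gene is said to have risen or fallen where its Benjamini-Hochberg adjusted p over all tested probe sets was under 0.05. Of the 23 HOX genes 9 rose, 7 fell and 7 did not pass. The share called, 69.6%, was close to the 65.2% of all probe sets that were called, 36.5% higher and 28.7% lower. In bulk RNA, fewer expressing cells and less RNA per cell cannot be told apart. With arrays centred on their medians 13 HOX genes rose and 4 fell, and 70.6% of all calls were higher in place of 55.9%. The HOX genes' median change was 0.15, against 0.10 over all probe sets. Above background, the largest changes were rises of HOXC9, HOXD13 and HOXB9 and falls of HOXB8 and HOXB2, as the plot of signals per array shows.

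**Figure D1:**
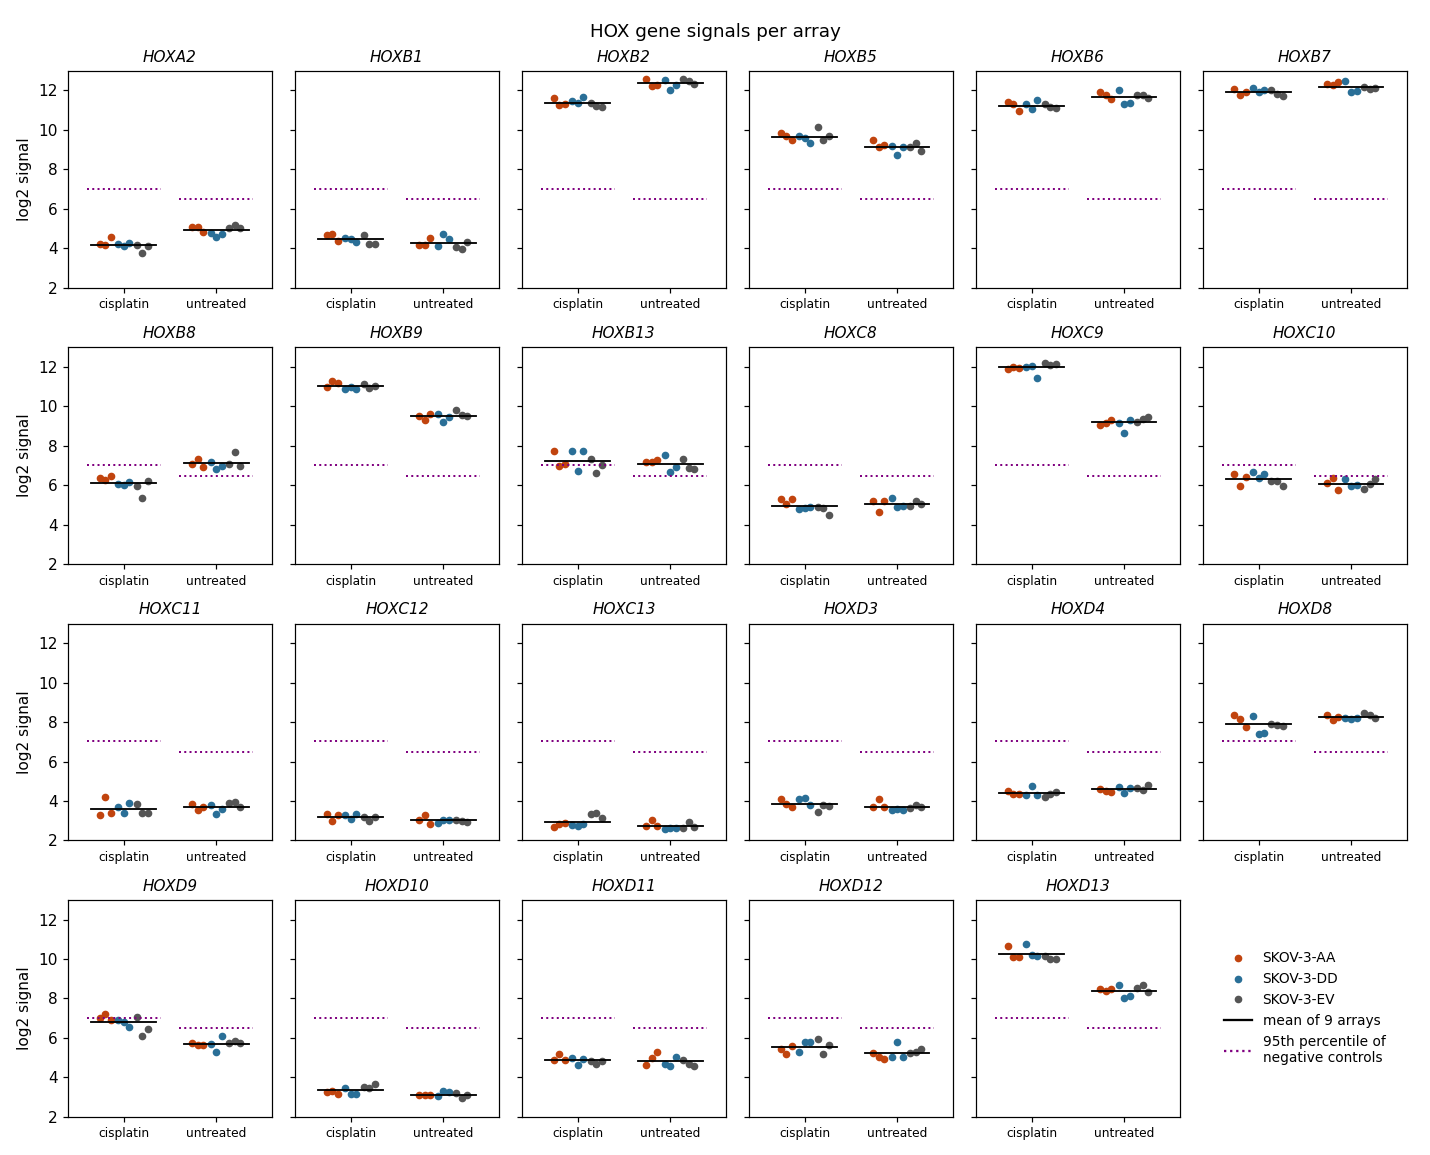
Log2 signal (y axis) of each of the 23 HOX genes in 9 cisplatin-treated and 9 untreated arrays, with 1 point per array coloured by transfection, a line at the mean of 9 arrays and a dotted line at the 95th percentile of the negative controls (7.03 for cisplatin, 6.49 for untreated). HOXC9, HOXB9 and HOXD13 lie higher and HOXB2 lower in all cisplatin-treated arrays, and the means of 13 genes lie under the dotted lines in both treatments.

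HOXC9 specifies thoracic identity in spinal motor neurons of the mouse and was the HOX gene with the lowest p. Its log2 signals over the 9 cisplatin-treated arrays had a lowest value of 11.44, a median of 12.02 and a highest value of 12.19, against 8.67, 9.23 and 9.44 over the 9 untreated arrays. The 2 sets of arrays did not overlap, with a gap wider than either set's own range. By transfection, cisplatin-treated arrays held 11.92, 12.02 and 11.97 in AA, 12.00, 12.04 and 11.44 in DD and 12.19, 12.11 and 12.16 in EV cells. Untreated arrays held 9.05, 9.17 and 9.28 in AA, 9.15, 8.67 and 9.29 in DD and 9.23, 9.35 and 9.44 in EV cells. Replicate 3 of cisplatin-treated SKOV-3-DD cells was the low one among the treated arrays. HOXC9 rose by 2.80 ± 0.10 (SE, n = 9 arrays each), a fold of 6.97, with an adjusted p of 3.8e-14 from limma.

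HOXD13 shapes the digits, and its mutations cause fused and extra fingers in people. Its lowest, median and highest signals were 9.99, 10.17 and 10.75 in cisplatin-treated and 8.01, 8.46 and 8.71 in untreated arrays. Every cisplatin-treated array again lay above every untreated one. The 3 arrays per group held 10.67, 10.11 and 10.10 in cisplatin-treated SKOV-3-AA, 10.75, 10.21 and 10.18 in cisplatin-treated SKOV-3-DD and 10.17, 9.99 and 9.99 in cisplatin-treated SKOV-3-EV cells. The untreated arrays held 8.46, 8.39 and 8.47 in AA, 8.66, 8.01 and 8.10 in DD and 8.51, 8.71 and 8.32 in EV cells. Replicate 1 was the highest treated array in each transfection. HOXD13 rose by 1.84 ± 0.11 (SE), a fold of 3.57, with an adjusted p of 7.38e-11.

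HOXB9, a paralogue of HOXC9 that acts in the thoracic region and the mammary gland of the mouse, was the gene of the HOXB cluster with the largest rise. Its lowest, median and highest signals were 10.86, 10.99 and 11.31 in cisplatin-treated and 9.22, 9.51 and 9.83 in untreated arrays. The arrays of both treatments were separated by about 1 unit. Cisplatin-treated cells held 10.95, 11.31 and 11.16 in AA, 10.89, 10.99 and 10.86 in DD and 11.11, 10.93 and 11.03 in EV arrays. Untreated cells held 9.51, 9.32 and 9.60 in AA, 9.61, 9.22 and 9.48 in DD and 9.83, 9.54 and 9.49 in EV arrays. The spread within a group was small throughout. HOXB9 rose by 1.51 ± 0.08 (SE), a fold of 2.85, with an adjusted p of 1.0e-11.

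The gene next to HOXB9, HOXB8, moved in the opposite direction. HOXB8 marks a lineage of microglia and blood progenitors in the mouse, and mice that lack it groom excessively. Its lowest, median and highest signals were 5.37, 6.17 and 6.47 in cisplatin-treated and 6.84, 7.07 and 7.67 in untreated arrays. The arrays did not overlap, but the mean of 6.11 in cisplatin-treated cells was under the background line of 7.03, so how far its RNA fell below that line is not measured. Cisplatin-treated arrays held 6.38, 6.28 and 6.47 in AA, 6.07, 6.03 and 6.17 in DD and 5.98, 5.37 and 6.23 in EV cells. Untreated arrays held 7.07, 7.33 and 6.94 in AA, 7.20, 6.84 and 6.98 in DD and 7.10, 7.67 and 6.98 in EV cells. The SKOV-3-EV cells held both the lowest treated and the highest untreated array, replicate 2 in each case. The log2 signal fell by 1.01 ± 0.12 (SE), with an adjusted p of 4.19e-07.

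HOXB2 acts in the hindbrain and in facial motor neurons of the mouse. Its lowest, median and highest signals were 11.17, 11.39 and 11.65 in cisplatin-treated and 12.01, 12.32 and 12.59 in untreated arrays. Both treatments were far above background and did not overlap. HOXB2 fell by 0.97 ± 0.09 (SE), a fold of 1.96, with an adjusted p of 1.75e-08. At the other end of the same cluster HOXB13, which marks the prostate and distal colon, held 6.61, 7.09 and 7.74 as its lowest, median and highest signals in cisplatin-treated and 6.66, 7.17 and 7.52 in untreated arrays. These ranges coincided almost fully, and the change of 0.13 ± 0.16 (SE) did not pass (adjusted p = 0.485).

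The middle of the HOXB cluster showed smaller changes with overlapping arrays. HOXB5, a gene of the enteric nervous system, averaged 9.66 ± 0.23 in cisplatin-treated and 9.14 ± 0.23 in untreated cells (SD, n = 9 each) and rose by 0.52 ± 0.11 (SE, adjusted p = 0.000297). HOXB6, expressed in the lateral mesoderm, averaged 11.24 ± 0.18 in cisplatin-treated and 11.68 ± 0.23 in untreated cells and fell by 0.45 ± 0.10 (SE, adjusted p = 0.00112). These adjacent genes thus moved in opposite directions. HOXB7, whose promoter is active in the ureteric bud of the mouse kidney, averaged 11.93 ± 0.13 in cisplatin-treated and 12.20 ± 0.19 in untreated cells and fell by 0.27 ± 0.08 (SE, adjusted p = 0.00889). This call was lost with arrays centred on their medians, where the change was -0.07 and the adjusted p 0.435. HOXB1, a hindbrain gene, averaged 4.47 in cisplatin-treated and 4.28 in untreated cells, which is not above background and did not pass (adjusted p = 0.104).

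In the HOXD cluster HOXD8 was the only other member above background. Its lowest, median and highest signals were 7.41, 7.85 and 8.35 in cisplatin-treated and 8.10, 8.23 and 8.47 in untreated arrays, and the ranges overlapped. Replicates 2 and 3 of the SKOV-3-DD cells given cisplatin, with 7.41 and 7.46, were the lowest of all. Its arrays held 8.35, 8.18 and 7.75 in cisplatin-treated SKOV-3-AA and 7.91, 7.85 and 7.78 in cisplatin-treated SKOV-3-EV cells, and untreated arrays held 8.38, 8.10 and 8.28 in AA, 8.23, 8.16 and 8.21 in DD and 8.47, 8.38 and 8.19 in EV cells. HOXD8 fell by 0.38 ± 0.11 (SE, adjusted p = 0.00799). The call was lost without these 2 arrays, chosen after seeing the data (adjusted p = 0.110), with centred arrays (adjusted p = 0.168) and with quantile normalization (adjusted p = 0.711).

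The remaining 13 members were not above background, and for them a difference in signal is given with no fold. HOXD9, a lumbar and forelimb gene in the mouse, came nearest to the background line, with lowest, median and highest signals of 6.12, 6.92 and 7.20 in cisplatin-treated and 5.30, 5.72 and 6.11 in untreated arrays. The arrays did not overlap, although the smallest gap was narrow. The signal of HOXD9 rose by 1.07 ± 0.12 (SE, adjusted p = 2.85e-07). HOXA2, which gives the second pharyngeal arch its identity, held 3.78, 4.19 and 4.56 in cisplatin-treated and 4.55, 5.02 and 5.18 in untreated arrays. The ranges only touched. Its signal fell by 0.74 ± 0.08 (SE, adjusted p = 1.81e-07), and the mean of cisplatin-treated cells exceeded 60.5% of the negative controls, that of untreated cells 83.0%.

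The signals of 4 further members not above background rose by 0.22 to 0.31. These were HOXD12 (0.31, adjusted p = 0.0356), HOXC10 (0.25, adjusted p = 0.0496), HOXC13, a gene of hair keratinisation (0.22, adjusted p = 0.0103), and HOXD10, a gene of the lumbar spinal cord in the mouse (0.22, adjusted p = 0.0121). The median of the negative controls' own means was 3.86 in cisplatin-treated and 3.67 in untreated cells, and the part of this shift in such small rises was not tested. HOXD4, a gene of the hindbrain and neck, fell by 0.19 (adjusted p = 0.0414). The calls of HOXC10, HOXD4 and HOXD12 held in only 11 of 26, 11 of 26 and 12 of 26 alternatives at the adjusted threshold. HOXC13 and HOXD10 did not pass with quantile normalization (adjusted p = 0.0929 for HOXC13 and 0.215 for HOXD10). HOXC8, HOXC11, HOXC12, HOXD3 and HOXD11 ranged from -0.11 to 0.17 and did not pass.

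By cluster, the single HOXA gene fell, HOXB had 2 risers and 4 fallers among 8 genes, HOXC had 3 and 0 among 6, and HOXD had 4 and 2 among 8. The median changes were -0.74 for HOXA, -0.07 for HOXB, 0.19 for HOXC and 0.19 for HOXD, against 0.10 over all probe sets. Of the HOXA, HOXC and HOXD genes 0 of 1, 1 of 6 and 2 of 8 were above background, so their medians rest mostly on lower signals. The median of the negative controls' own means was 3.86 in cisplatin-treated and 3.67 in untreated cells. The part of this shift in the cluster medians was not tested. With centred arrays, where the median of all probe sets was 0.30, the HOXB median turned to 0.13 and those of HOXC and HOXD were 0.39 and 0.38. With quantile normalization they were -0.10 for HOXB, 0.10 for HOXC and 0.04 for HOXD. Counting only members above background, HOXB held 2 that rose, 4 that fell and 1 that did not pass. Of these fallers HOXB8 was above background in untreated cells only. HOXC held 1 that rose, and HOXD 1 that rose and 1 that fell. The HOXB genes therefore spanned both directions, with changes from -1.01 to 1.51, and the difference between clusters was not tested because genes of a cluster are not replicates. The plot of changes by cluster shows that large and small changes lay side by side in each cluster with more than 1 gene.

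**Figure D2:**
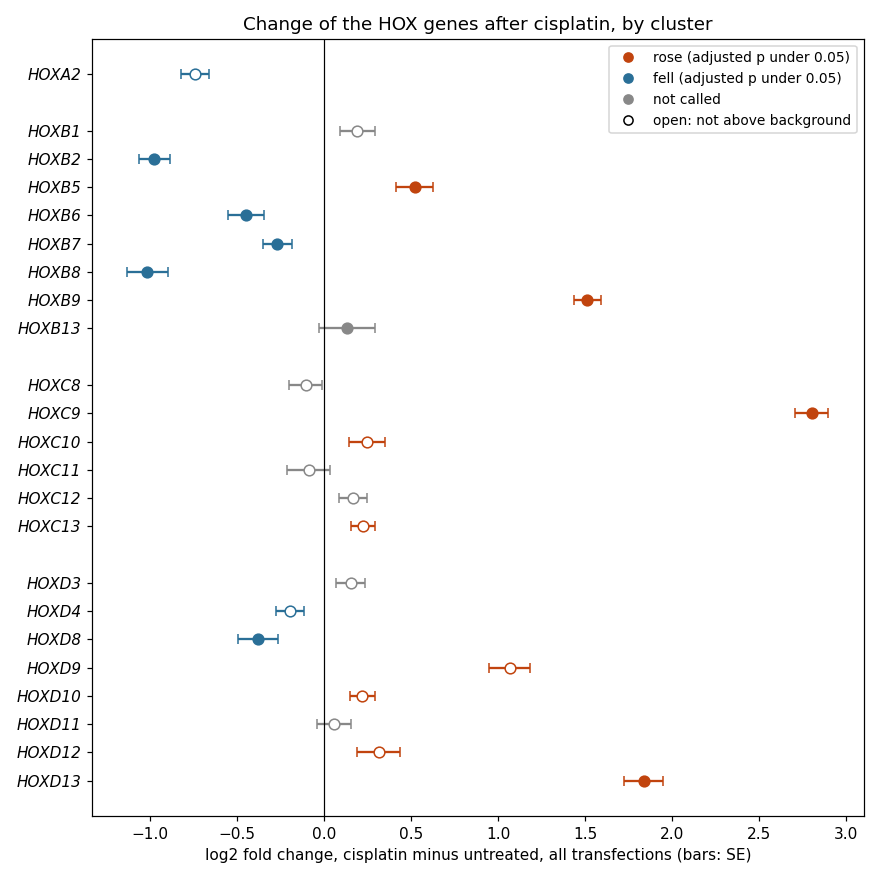
Log2 fold change after cisplatin over all transfections (x axis) with its standard error for the 23 HOX genes, listed by cluster (y axis), coloured by direction of the call, with open points for genes not above background in either treatment. HOXC9 stands at 2.80, HOXD13 at 1.84 and HOXB9 at 1.51, while HOXB8 stands at -1.01 and HOXB2 at -0.97.

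The study took a 2-fold change and a p under 0.05 as differential expression and did not say whether that p was adjusted. It also judged from detection calls whether probe sets were expressed, and these calls were not available here. With p taken as unadjusted, the risers over all transfections were HOXC9, HOXD13, HOXB9 and HOXD9, the last on a signal not above background. The single faller was HOXB8, and 18.6% of all probe sets were called, 6.4% higher and 12.2% lower. Cisplatin-treated and untreated arrays did not overlap for 6 of the 23 genes, HOXB2, HOXB8, HOXB9, HOXC9, HOXD9 and HOXD13, against 31.3% of all probe sets. Of the 16 called genes 9 kept their call and direction in every alternative that held the adjusted threshold and in which they were tested: HOXA2, HOXB2, HOXB5, HOXB6, HOXB8, HOXB9, HOXC9, HOXD9 and HOXD13. HOXA2 and HOXD9, not above background, were tested in 26 such alternatives and the others in 27. The share of all called probe sets that kept their call was not computed. Of the 9 genes HOXA2, HOXB2, HOXB5 and HOXB6 changed less than 2-fold over all transfections and were not called there at the study's thresholds. The study compared treatments within each transfection, and in SKOV-3-EV cells HOXA2 and HOXB2 passed these thresholds, with -1.06 and -1.19. The signal of HOXA2 was not above background, so the size of its change is not measured.

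The genes also divided by their number, a split made after their values had been seen and therefore given with no test. Among the 11 genes of paralogue groups 1 to 8, 1 rose (HOXB5) and 7 fell, with a median of -0.27. Among the 12 genes of groups 9 to 13, 8 rose and 0 fell, with a median of 0.24. Over all probe sets 36.5% were called higher and 28.7% lower. The risers HOXC10, HOXC13, HOXD9, HOXD10 and HOXD12 were not above background. The negative controls' own means had a median of 3.86 in cisplatin-treated and 3.67 in untreated cells, and the part of this shift was not tested. Restricted to members above background, 1 rose and 5 fell of 6 in groups 1 to 8, and 3 rose and 0 fell of 4 in groups 9 to 13. HOXB8, among these fallers, was above background in untreated cells only, so its inclusion depends on the treatment where it is high. With centred arrays 3 rose and 4 fell in groups 1 to 8 and 10 rose and 0 fell in groups 9 to 13, and with quantile normalization 1 rose and 6 fell in the first set and 6 rose and 0 fell in the second. Among all 21448 probe sets 12026 were higher and 5013 lower with centred arrays, and 6990 and 6033 with quantile normalization. All 3 genes of paralogue group 9, HOXB9, HOXC9 and HOXD9, rose, HOXD9 on a signal not above background. Across the 23 genes Spearman's rho between paralogue number and change was 0.47, and across the 10 above background, HOXB8 included, it was 0.58. Genes share arrays and are not independent.

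Genes next to the clusters were set beside them to show whether the changes ran across the region. Protein-coding genes within 500 kb of a cluster numbered 39 with a measured probe set, of which 12 rose and 14 fell, with a median of -0.01. The share called, 66.7%, was close to the 65.2% of all probe sets, 36.5% higher and 28.7% lower. The HOXC cluster is flanked by CALCOCO1, a coactivator and autophagy receptor that fell by 1.50, and by SMUG1, a uracil DNA glycosylase, which fell by 0.70. Farther out, ITGA5, the fibronectin receptor subunit, fell by 0.71, and TARBP2, a partner of Dicer that was not above background, had 6.89 in cisplatin-treated and 6.19 in untreated cells and rose by 0.70. Of the 15 HOXC neighbours 4 rose and 7 fell, and of the 18 HOXB neighbours 6 rose and 4 fell. Of the 3 HOXA neighbours 1 rose and 2 fell, and of the 3 HOXD neighbours 1 rose and 1 fell. With centred arrays 19 of the 39 rose and 13 fell, against 12026 higher and 5013 lower among all 21448 probe sets. HIBADH beside HOXA, an enzyme of valine breakdown, fell by 1.32. PRAC1 beside HOXB13, expressed in prostate and colon, rose by 0.60 but was not above background, with 3.66 in cisplatin-treated and 3.05 in untreated cells. No neighbour had a change as large as that of HOXC9, HOXD13 or HOXB9 in the upward direction, the largest rise being the 0.70 of TARBP2. Among the neighbours that rose NFE2L1 alone was above background, and it rose by 0.36.

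**Figure D3:**
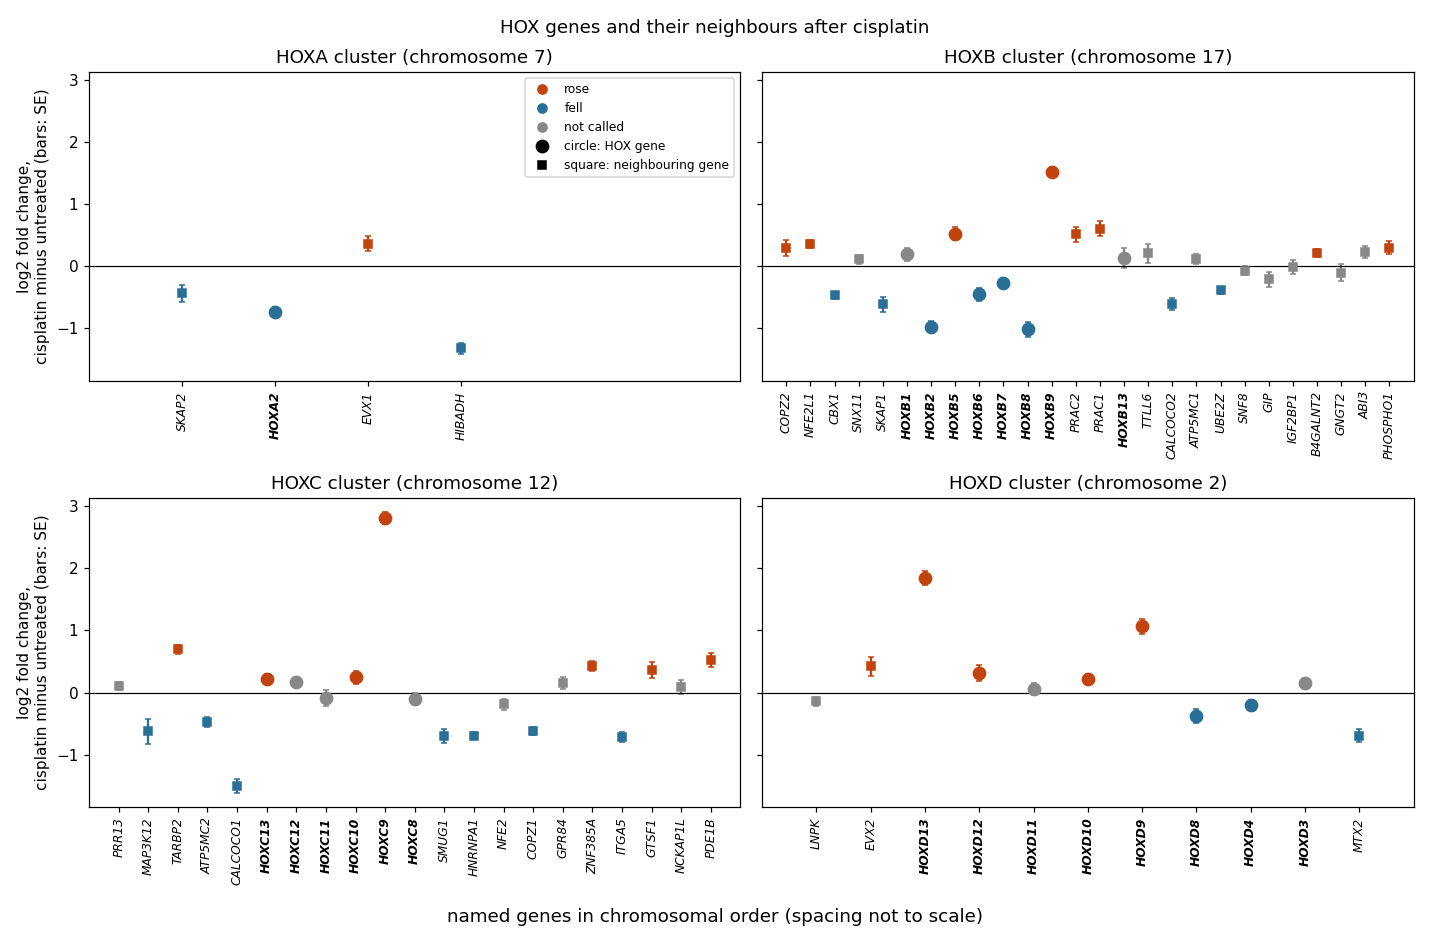
Log2 fold change after cisplatin over all transfections (y axis) with its standard error for HOX genes (circles, bold names) and for named protein-coding genes within 500 kb (squares), in chromosomal order along the x axis in 1 panel per cluster, with spacing not to scale. Rises and falls lie side by side in every panel, and HOXC9 at 2.80 lies between HOXC8 and HOXC10 at -0.11 and 0.25.

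Antisense transcripts were measured for 2 loci, and the labels describe labelled sense-strand cDNA. HOXB-AS3, which overlaps HOXB5 and HOXB6, averaged 10.60 ± 0.20 in cisplatin-treated and 10.47 ± 0.16 in untreated cells (SD, n = 9 each), a change of 0.13 that did not pass (adjusted p = 0.231). HOXA-AS3 overlaps HOXA genes that were not analysed here and averaged 5.69 ± 0.34 in cisplatin-treated and 5.32 ± 0.17 in untreated cells, a rise of 0.37 (adjusted p = 0.0046) in a signal not above background. In the RefSeq gene table HOXB2, HOXC10, HOXC11, HOXC12, HOXC13 and HOXD8 each overlap 1 other gene outside the family, and HOXD3 and HOXD4 overlap each other, so the signals of these 2 may not be independent. HOXC9, HOXD13, HOXB9 and HOXB8 overlap no other gene.

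The response to cisplatin was then read within each transfection, where each comparison rests on 3 arrays against 3 of its own. In SKOV-3-AA cells 4 HOX genes rose and 5 fell, with 45.3% of all probe sets called, 22.3% higher and 23.0% lower. In SKOV-3-DD cells 6 rose and 3 fell, with 42.8% of all called, 20.1% higher and 22.7% lower. In SKOV-3-EV cells 7 rose and 5 fell, with 50.5% of all called, 26.2% higher and 24.3% lower. The shares of HOX genes called were 39.1%, 39.1% and 52.2% in the same order, close to these backgrounds. The number that fell in SKOV-3-AA cells was 3 without replicate 1 of the untreated SKOV-3-AA arrays, and the number that fell in SKOV-3-EV cells was 3 without replicate 2 of the cisplatin-treated or replicate 1 or 2 of the untreated SKOV-3-EV arrays. With centred arrays 10 rose and 3 fell in SKOV-3-AA cells, and 3 fell in SKOV-3-EV cells. The SE of a change in 1 transfection is larger than that over all transfections, and a gene called in one and not in another is not thereby shown to differ.

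The same 7 genes were called in the same direction in all 3 transfections: HOXB9, HOXC9, HOXD9 and HOXD13 rose, and HOXA2, HOXB2 and HOXB8 fell. HOXC9 changed by 2.80 in AA, 2.79 in DD and 2.81 in EV cells. These 3 values lay within 1 SE of each other. HOXD13 changed by 1.85 in AA, 2.12 in DD and 1.54 in EV cells, and HOXB9 by 1.66 in AA, 1.47 in DD and 1.40 in EV cells. Among the fallers, HOXB8 changed by -0.74 in AA, -0.92 in DD and -1.39 in EV cells, and HOXB2 by -0.96 in AA, -0.78 in DD and -1.19 in EV cells. Both had their most negative value in EV cells. HOXD9 changed by 1.39 in AA, 1.05 in DD and 0.76 in EV cells and HOXA2 by -0.68 in AA, -0.48 in DD and -1.06 in EV cells, both on signals not above background. The estimate had the same sign in all 3 transfections for 17 of the 23 genes, 9 of the 10 above background and 8 of the 13 that were not. The exception above background was HOXB13, with 0.04 in AA, 0.37 in DD and -0.01 in EV cells. For the 7 genes called alike and for the shared signs, no share over all probe sets was computed. The agreement between transfections is thus not shown to be particular to HOX genes.

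**Figure D4:**
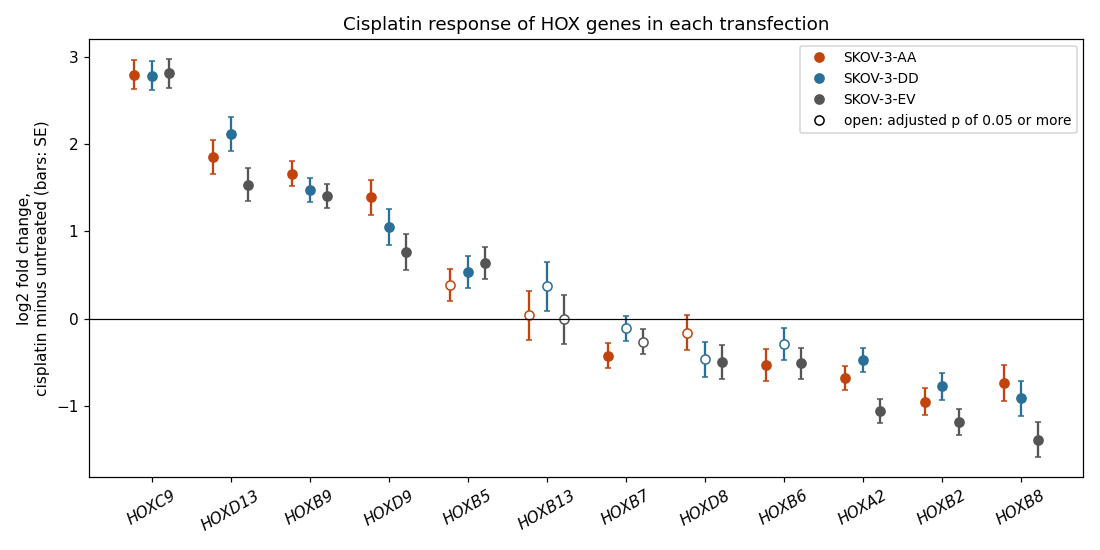
Log2 fold change after cisplatin (y axis) with its standard error in SKOV-3-AA, SKOV-3-DD and SKOV-3-EV cells (3 arrays against 3 each) for the 10 HOX genes above background and for HOXD9 and HOXA2, ordered by their change over all transfections (x axis), with open points where the adjusted p was 0.05 or more. HOXC9 stands at 2.80, 2.79 and 2.81, and HOXB8 at -0.74, -0.92 and -1.39.

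Differences in the cisplatin response between transfections were tested directly. Of the 23 genes 0 passed in limma, whether AA was set against EV, DD against EV or AA against DD, and 0% of all probe sets were called in each. At an unadjusted p under 0.05 the numbers of HOX genes were 4, 4 and 0, with 6.9%, 7.59% and 4.7% of all probe sets. The lowest p for AA against EV was that of HOXC13, with a difference of -0.57 ± 0.17 (SE, adjusted p = 0.571). For DD against EV it was that of HOXA2, 0.58 ± 0.20 (SE, adjusted p = 0.527), and for AA against DD that of HOXD3, -0.40 ± 0.21 (SE, adjusted p = 0.985). The response of HOXD9 in SKOV-3-AA cells exceeded that in SKOV-3-EV cells by 0.62 ± 0.29 (SE, adjusted p = 0.722), and the fall of HOXB8 was smaller in SKOV-3-AA cells by 0.65 ± 0.29 (SE, adjusted p = 0.693). The response of HOXD13 in SKOV-3-DD cells exceeded that in SKOV-3-EV cells by 0.58 ± 0.28 (SE, adjusted p = 0.652). None of these passed.

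The transfections themselves were compared in untreated and in cisplatin-treated cells. Again 0 HOX genes and 0% of all probe sets were called in each of the 6 comparisons in limma. In untreated cells 0, 1 and 1 HOX genes had an unadjusted p under 0.05 for AA against EV, DD against EV and AA against DD, with 3.09%, 5.47% and 3.99% of all probe sets. The gene was HOXA2 both times, with signals of 5.09, 5.09 and 4.84 in AA, 4.76, 4.55 and 4.71 in DD and 5.02, 5.18 and 5.02 in EV cells. The SKOV-3-DD arrays were the low ones, by -0.40 ± 0.14 (SE) against SKOV-3-EV cells (adjusted p = 0.829), while HOXD11 had the lowest p for AA against EV with 0.26 ± 0.17 (SE).

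In cisplatin-treated cells 6, 4 and 0 HOX genes had an unadjusted p under 0.05 in the same order of comparisons, with 12.5%, 7.79% and 6.98% of all probe sets. HOXC13 had the lowest p in the first 2 of these, with 2.66, 2.82 and 2.86 in AA, 2.80, 2.73 and 2.85 in DD and 3.34, 3.37 and 3.15 in EV cells. The SKOV-3-EV arrays were the high ones, and the mean of all cisplatin-treated arrays exceeded 15.0% of the negative controls. SKOV-3-AA cells differed from SKOV-3-EV cells by -0.50 ± 0.12 (SE, adjusted p = 0.147) and SKOV-3-DD cells by -0.49 ± 0.12 (SE, adjusted p = 0.350). For AA against DD HOXC8, a brachial motor neuron gene in the mouse, was lowest, with 5.29, 5.06 and 5.28 in AA cells and 4.82, 4.87 and 4.90 in DD cells. These arrays did not overlap, but the difference of 0.35 ± 0.17 (SE) was of a signal not above background and did not pass (adjusted p = 0.715).

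Partners and regulators of the HOX genes were read from lists chosen with results of these data known, by counts beside the background over all probe sets given above. With centred arrays that background was 12026 higher and 5013 lower among 21448 probe sets. Of the TALE cofactors, which bind DNA with HOX proteins, 2 of 7 rose and 5 fell, with a median of -1.13. MEIS2 averaged 8.11 ± 0.38 in cisplatin-treated and 11.10 ± 0.13 in untreated cells (SD, n = 9 each) and fell by 2.99, and PKNOX1 fell by 1.28, while PBX4 (not above background) rose by 0.46 and MEIS3 by 0.28. MEIS1, with 5.47 in cisplatin-treated and 6.76 in untreated cells, fell to a level under the background line of cisplatin-treated cells, so the size of its fall is not measured. Of 14 genes of retinoic acid synthesis, breakdown and reception 5 rose and 3 fell, with a median of 0.12, and with centred arrays 9 rose and 3 fell. RDH10, which makes retinaldehyde from retinol, had 12.48 ± 0.23 in cisplatin-treated and 9.20 ± 0.17 in untreated cells and rose by 3.28. The receptor RXRB rose by 0.71 and the carrier CRABP2 rose to 7.83 in cisplatin-treated cells, against 6.26 in untreated cells, a level under background, whereas the receptors RARA and RARG fell by 0.68 and 0.59, and RARB, not above background, had 2.79 in cisplatin-treated and 5.19 in untreated cells.

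Chromatin regulators known to act on the clusters were read in the same way. Of 17 measured Polycomb genes 2 rose and 13 fell, with a median of -0.62. JARID2, a targeting subunit of Polycomb repressive complex 2, averaged 6.38 ± 0.20 in cisplatin-treated and 10.13 ± 0.24 in untreated cells. It fell, but its level after cisplatin was under the background line, so the size of the fall is not measured. AEBP2 fell by 1.66 and PHF19 by 1.05, and PHF1 rose by 0.63 and CBX2 by 0.60. Of 15 MLL and trithorax genes and H3K27 demethylases 4 rose and 8 fell, with a median of -0.41, and with centred arrays 7 rose and 8 fell. KDM6B, a demethylase that removes the Polycomb mark, averaged 11.25 ± 0.26 in cisplatin-treated and 8.96 ± 0.31 in untreated cells and rose by 2.29. The related KDM6A, with 6.28 in cisplatin-treated and 8.26 in untreated cells, fell to a level under the background line. MLLT3 fell by 3.11 and PSIP1 by 1.14, and WDR5 rose by 0.50, as did KMT2B, not above background, by 0.79. CTCF and cohesin fold the clusters into domains. Their list, which also held the associated factors NIPBL, WAPL and MAZ, had 8 measured genes, of which 7 fell, with a median of -1.34. STAG1 fell by 3.25, WAPL fell by 1.93 and CTCF fell by 1.82, while MAZ rose by 0.61.

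Of 6 measured transcription factors named as upstream of HOX genes 3 rose and 0 fell, and with centred arrays 5 rose and 0 fell. The 3 were GBX2, a gene of the midbrain-hindbrain boundary, with 7.33 ± 0.65 in cisplatin-treated and 4.02 ± 0.28 in untreated cells, GATA2, with 8.32 in cisplatin-treated and 6.11 in untreated cells, and GATA1, which was not above background in either treatment and changed by 0.67. The untreated levels of GBX2 and GATA2 were under the background line of 6.49, so the sizes of their rises are not measured. Of 63 other homeobox genes outside the clusters 34 rose and 9 fell, with a median of 0.30. DLX2 and DLX1, paired forebrain and craniofacial genes, had 10.35 ± 0.49 and 11.22 ± 0.19 in cisplatin-treated and 6.63 ± 0.30 and 8.31 ± 0.29 in untreated cells, rises of 3.72 and 2.91. ZHX3 fell by 2.13 and TGIF2 fell by 1.70, and ZHX2, with 6.33 in cisplatin-treated and 9.82 in untreated cells, fell to a level under the background line. Of the 63 genes 21 were above background, and 45 rose and 6 fell with centred arrays, 27 rose and 13 fell with quantile normalization. Among all 21448 probe sets 36.5% were called higher and 28.7% lower. Centred arrays gave 12026 higher and 5013 lower, and quantile normalization 6990 higher and 6033 lower. The median of the negative controls' own means was 3.86 in cisplatin-treated and 3.67 in untreated cells. The part of this shift in rises under background was not tested.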

How the data were processed

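The authors made the deposited log2 signals by SST-RMA summarization and RMA normalization of Clariom S arrays in Transcriptome Analysis Console, and the values were used as deposited. Base 2 was inferred from RMA and from the range of the values. Detection calls and the build of the probe annotation are not given in the sources used here. The table has 24351 features on 18 arrays and 0 other columns. Leaving out 2903 controls left 21448 probe sets, 17709 with a symbol and 3739 with none, and all 23 HOX genes matched RefSeq by Entrez identifier. Genomic order and promoters come from RefSeq's GRCh38.p14.

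Groups were compared in limma 3.58.1 (R 4.3.3) in 1 linear model with 6 group means, 12 residual and 5.47 prior degrees of freedom, with p-values adjusted over all of the probe sets tested (Benjamini-Hochberg). The number of arrays limits precision, and the median SE was 0.18 between 2 groups and 0.10 over all transfections. The procedure was tested on simulated data. Members and lists were chosen with earlier results of these data known. Values by array are given for members above background whose log2 change was at least 1, for the highest and lowest in each cluster and for the lowest p in each comparison of transfections, and other members are given by range or mean. Ranges of HOXB2, HOXB13, HOXD9 and HOXA2 were added after their values were seen. Each list is described by up to 3 called genes in each direction. Alternatives were other scalings, filters, variance moderation, call thresholds, fits of the compared groups only, 1 probe set per symbol, a replicate block and leaving out arrays. Plots were made in Python 3.11.15 with matplotlib 3.10.9.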

Additional observations from a re-analysis of the deposited data

How the results depend on the processing

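The comparisons over all transfections rest on 9 arrays per treatment and those within a transfection on 3, 13 of the 23 genes are not above background, and the HOXA cluster is represented by 1 gene. Centring arrays on their medians moved the median change of all probe sets from 0.10 to 0.30 and the share of calls that were higher from 55.9% to 70.6%. With centred arrays 13 HOX genes rose and 4 fell over all transfections, 10 rose and 3 fell in SKOV-3-AA cells and 3 fell in SKOV-3-EV cells, and the cluster medians were -0.54 for HOXA, 0.13 for HOXB, 0.39 for HOXC and 0.38 for HOXD. Reversed in direction, besides the HOXB median, were HOXC8 at 0.0920, HOXC11 at 0.110 and HOXD4 at 0.00472 with centred arrays, and HOXD3 at -0.0119 and HOXD11 at -0.0719 with quantile normalization, which gave a HOXD median of 0.0445. Keeping only probe sets with a mean at or above the median of all left 4 HOX genes that rose over all transfections and 4 in SKOV-3-EV cells, with medians of -0.27 for HOXB, 2.80 for HOXC, where 1 member was left, and 0.73 for HOXD, where 2 were left. At the study's thresholds 4 rose and 1 fell over all transfections, 3 rose and 3 fell in SKOV-3-EV cells, 0 fell in SKOV-3-AA cells and 0 in SKOV-3-DD cells. Apart from the effect of fewer genes or a stricter threshold, the cause of these differences was not tested.

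Leaving out 1 array at a time gave 7 to 10 genes that rose and 6 to 7 that fell over all transfections, 6 to 7 and 3 to 6 in SKOV-3-EV, 4 to 4 and 3 to 5 in SKOV-3-AA, and 4 to 7 and 3 to 4 in SKOV-3-DD cells. Medians ranged from -0.78 to -0.70 for HOXA, from -0.12 to -0.03 for HOXB, from 0.16 to 0.23 for HOXC and from 0.16 to 0.21 for HOXD. Counts of 0 between transfections stayed at 0. Without replicates 2 and 3 of the SKOV-3-DD cells given cisplatin, which lay farthest from their group mean and were chosen after seeing the data, 7 rose and 6 fell.

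Same-numbered arrays of different groups deviated together only weakly (45 pairs, correlations from -0.05 to 0.18, 8 over 0.1). Yet 16 of 18 arrays correlated best with their own number. The labels state no pairing and the main fit used none, so an effect shared by same-numbered arrays was not modelled there. A replicate block gave 8 genes that rose and 6 that fell over all transfections, with HOXC10 (adjusted p = 0.056) and HOXD4 (adjusted p = 0.054) no longer called.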
